A study of Homo sapiens with 6 samples.

Results

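The TGF-β, activin and BMP pathway is described here in 1CT, an immortalized line of human colon epithelial cells, and in 1CT-A, the same line after knockdown of the tumor suppressor APC. The 50 genes examined are named ligands, receptors, antagonists, SMAD proteins, corepressors and target genes of this pathway, picked by gene symbol out of the 24462 different symbols in the count tables. All 50 symbols are present, each in 1 entry. Of these genes, 41 have enough counts for the test across all genes and 9 do not.

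RNA was sequenced from 3 libraries labelled 1CT wild type and 3 labelled APC knockdown, all from untreated cells, in a study of what the loss of APC changes at the start of colorectal cancer. Both lines grew in the same mixture of DMEM and M199 with 2% serum, 5 nM selenite, 20 ng/ml EGF, and hydrocortisone, insulin and transferrin at 1, 10 and 2 µg/ml per the labels. The parental line carries a manipulation of hTERT. Each genotype is represented by 1 cell line, and neither whether 1CT-A is a clone nor whether the 3 libraries of a line come from separate cultures is stated, so the p-values measure the spread between these libraries only, which may be technical.

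The libraries hold 7788679 to 8452258 counts in 1CT and 11158108 to 12602988 in 1CT-A, so that 3 counts, taken as the lowest visible value, correspond to at least 0.238 and at most 0.385 CPM, the counts scaled to an equal library total. APC itself has 49.3, 43.8 and 46.6 CPM in 1CT and 31.5, 30.0 and 34.4 CPM in 1CT-A, a log2 fold change of -0.58 (SE 0.09, edgeR adjusted p = 1.76e-04), so its transcript is reduced and still present. Most of the epithelial markers examined are at or near 0 although the label says colonic epithelial progenitor. EPCAM, VIL1 and CLDN3 have 0 counts in all 6 libraries, and the 10 epithelial markers EPCAM, CDH1, KRT8, KRT18, KRT19, KRT20, VIL1, CDX2, CLDN3 and CLDN4 sum to 13.6 to 17.6 CPM in the wild type line and 3.32 to 7.28 CPM after knockdown. The 10 mesenchymal markers VIM, CDH2, COL1A1, COL1A2, COL3A1, PDGFRA, PDGFRB, THY1, FAP and LUM sum to 4693 to 5749 CPM and 4365 to 4668 CPM. The part of these markers in the results that follow was not tested, and in bulk RNA a smaller number of cells of one kind and less RNA per cell cannot be told apart.

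As background, ligands of this family bind pairs of type I and type II serine/threonine kinase receptors, and the type I receptor phosphorylates SMAD proteins that enter the nucleus together with SMAD4. TGF-β and activin act mainly through SMAD2 and SMAD3, and BMPs, GDF5 and GDF6 through SMAD1 and SMAD5. Secreted proteins such as gremlin, noggin and follistatin trap the ligands outside the cell, while SMAD6, SMAD7 and the SMURF ubiquitin ligases restrain the signal inside it. In the colon, BMP signals promote differentiation toward the crypt surface, BMP antagonists are made by stromal cells around the crypt base, and TGF-β restrains epithelial growth.

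The promoters of the BMP antagonists and ligand with the largest differences, GREM1, BMP4 and CHRDL1, and of 2 BMP target genes that change in opposite directions, ID1 and ID3, are shown because these genes carry the main results. The sequences are those of RefSeq on GRCh38.p14, written 5′ to 3′ on the strand of the gene, from 250 bases before to 50 bases after the most upstream listed start. Capitals mark exact matches, on either strand, of GGCGCC, a GC-rich motif of SMAD1 and SMAD5, and of CAGAC or its reverse complement GTCTG, the core motif of SMAD3 and SMAD4. The windows are chr15:32717754-32718053 (plus strand) for GREM1, chr14:53955001-53955300 (minus) for BMP4, chrX:110795768-110796067 (minus) for CHRDL1, chr20:31605039-31605338 (plus) for ID1 and chr1:23559452-23559751 (minus) for ID3.
GREM1: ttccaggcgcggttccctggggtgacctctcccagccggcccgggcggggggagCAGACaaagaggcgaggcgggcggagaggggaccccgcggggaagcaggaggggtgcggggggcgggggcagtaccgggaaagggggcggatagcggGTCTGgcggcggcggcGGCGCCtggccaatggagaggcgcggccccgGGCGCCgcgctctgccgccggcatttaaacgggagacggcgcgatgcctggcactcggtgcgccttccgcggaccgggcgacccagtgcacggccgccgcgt
BMP4: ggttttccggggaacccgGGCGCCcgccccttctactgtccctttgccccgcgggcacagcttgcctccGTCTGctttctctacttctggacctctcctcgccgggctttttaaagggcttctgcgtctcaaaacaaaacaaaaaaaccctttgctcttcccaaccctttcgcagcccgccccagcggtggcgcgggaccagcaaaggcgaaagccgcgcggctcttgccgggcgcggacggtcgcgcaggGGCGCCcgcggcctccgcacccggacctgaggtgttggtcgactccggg
CHRDL1: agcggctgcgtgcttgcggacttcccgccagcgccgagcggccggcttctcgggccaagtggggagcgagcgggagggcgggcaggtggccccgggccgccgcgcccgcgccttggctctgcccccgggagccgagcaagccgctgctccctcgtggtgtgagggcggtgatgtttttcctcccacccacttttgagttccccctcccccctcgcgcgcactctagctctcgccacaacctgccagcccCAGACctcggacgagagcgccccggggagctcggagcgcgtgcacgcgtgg
ID1: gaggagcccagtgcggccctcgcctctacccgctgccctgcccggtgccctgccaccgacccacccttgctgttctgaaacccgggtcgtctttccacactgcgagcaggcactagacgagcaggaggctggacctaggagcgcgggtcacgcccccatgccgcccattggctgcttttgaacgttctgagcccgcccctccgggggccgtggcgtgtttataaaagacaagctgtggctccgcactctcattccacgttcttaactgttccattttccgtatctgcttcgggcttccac
ID3: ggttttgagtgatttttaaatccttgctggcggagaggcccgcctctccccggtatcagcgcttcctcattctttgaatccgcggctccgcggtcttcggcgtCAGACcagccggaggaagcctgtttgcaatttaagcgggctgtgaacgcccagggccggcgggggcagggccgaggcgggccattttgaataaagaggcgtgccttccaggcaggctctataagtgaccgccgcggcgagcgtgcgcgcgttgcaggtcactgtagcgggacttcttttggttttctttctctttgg

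GREM1 holds 2 matches of GGCGCC and 2 of CAGAC, BMP4 holds 2 and 1, CHRDL1 and ID3 hold 1 match of CAGAC, and the ID1 window holds none of these letters. No match overlaps another in these windows. Among the 43 genes of the pathway with a promoter in the RefSeq table, GGCGCC occurs in 16 (37.2%) and CAGAC in 19 (44.2%), compared with 18.9% and 45.1% of all 27305 promoters of the same length. CTTTGAT, a motif of the TCF/LEF factors through which β-catenin acts, occurs in 0 of the 43 and in 2.66% of all promoters. A match is a description of the letters and not of a bound site. Promoter entries for INHBE, BMP2, BMP7, GDF6, BMP1, NOG and SKI were not used here.

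Most of the tested genes of the pathway are expressed at a lower level in 1CT-A. Of the 41 genes tested, 23 (56.1%) are lower in 1CT-A, 7 (17.1%) are higher and 11 are not called at an adjusted p under 0.05 in edgeR. Over all 12514 genes tested, 26.0% are lower, 25.0% are higher and 51.0% are called in either direction. The median log2 fold change of the 41 genes is -0.40, against -0.01 for all genes. The values of the 3 libraries of one line lie entirely above or below those of the other for 30 of the 41 genes, and for 59.7% of all genes. With the thresholds of the study's methods, a 2-fold or larger difference with p under 0.01 before adjustment, here applied to the edgeR fit, 11 of the 41 pathway genes pass compared with 13.4% of all genes. The 10 on the lower side (9.60% of all genes) are TGFB2, FST, BMP4, GDF5, GDF6, BMP1, GREM1, NOG, BAMBI and SMAD7. The 1 on the higher side (3.80%) is CHRDL1. With a separate equal-variance test for each gene on log2(CPM + 1), 9 pathway genes pass. The share of all genes that pass with that test was not computed, and the percentages above do not apply to it.

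**Figure D1:**
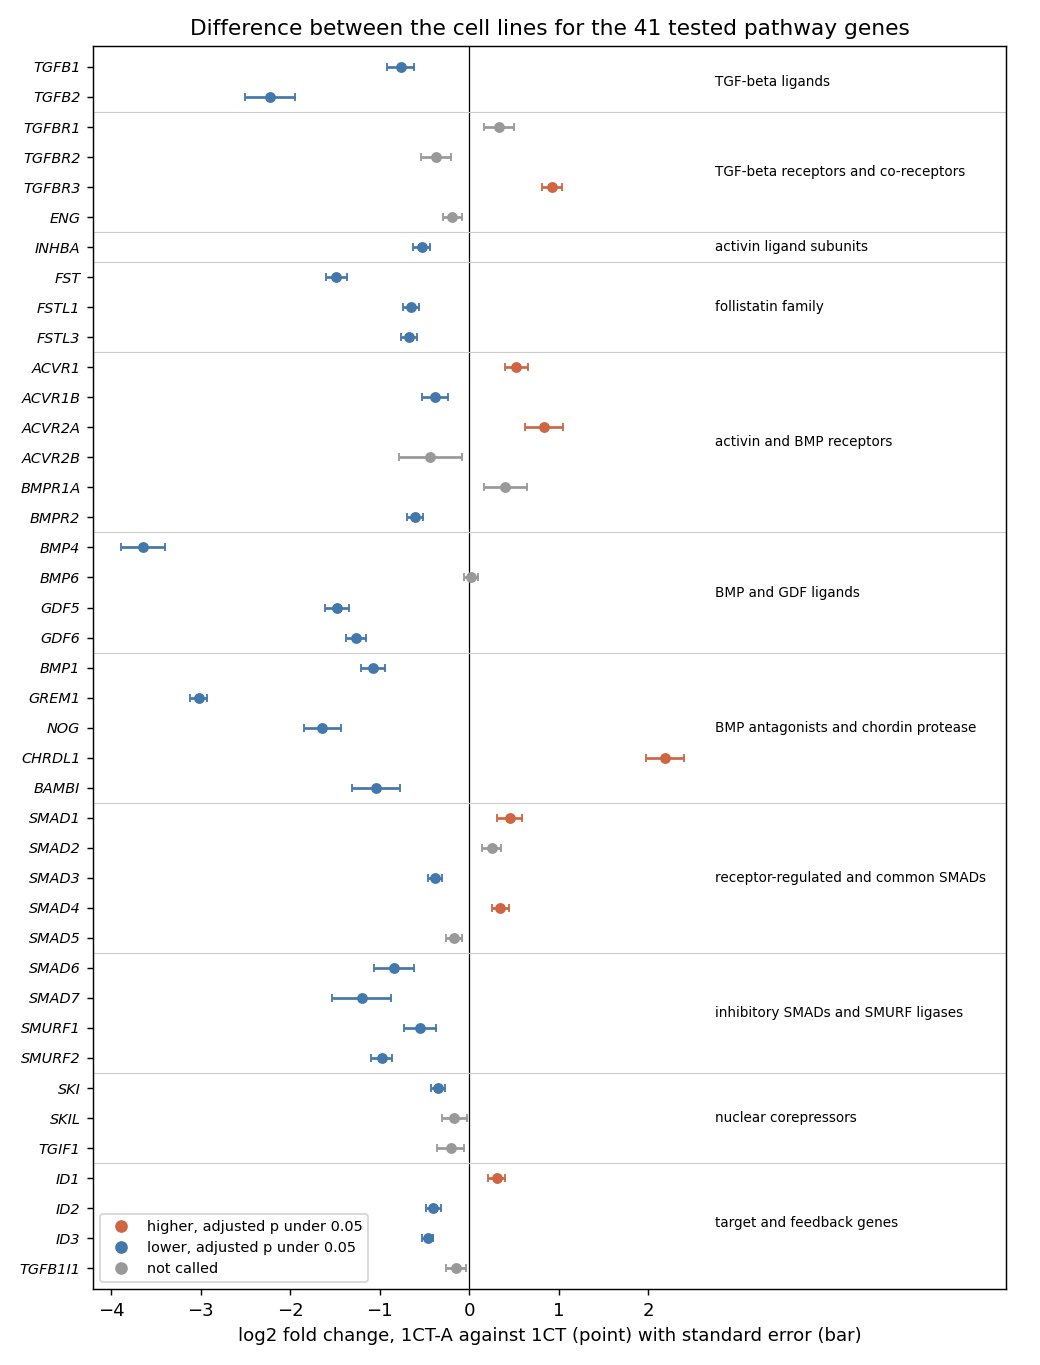
Log2 fold changes between the lines, 1CT-A relative to 1CT (x axis), for the 41 tested pathway genes (y axis, grouped by role), with points for the edgeR estimate and bars for 1 standard error, 3 libraries per line. BMP4 at -3.64 and GREM1 at -3.02 lie farthest to the left and CHRDL1 at 2.19 farthest to the right, and the inhibitory SMADs, SMURF ligases and follistatins all lie left of 0.

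Counts at low levels differ between the lines in genes that these cells should not transcribe. The 378 olfactory receptor genes sum to 4.00 ± 0.57 CPM in 1CT and 1.56 ± 0.14 CPM in 1CT-A (SD, n = 3), and no single one exceeds 1.21 CPM. When the genes are restricted to those averaging 10 CPM or more over the libraries, a choice made after the data were seen, 17 of 30 pathway genes are lower (23.4% of all such genes) and 5 are higher (31.4%). Under this restriction 6 pathway genes, TGFB2, FST, GDF5, GDF6, BMP1 and GREM1, pass the 2-fold rule (6.72% of all such genes). The part of the low-level counts in the differences of BMP4, NOG, BAMBI, SMAD7 and CHRDL1, which fall below that mean, was not tested.

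The secreted BMP antagonists move in both directions, with GREM1 and NOG lower and CHRDL1 higher in 1CT-A. GREM1, on chromosome 15 from 32718004 to 32745106 (GRCh38), encodes gremlin, which binds BMP2, BMP4 and BMP7. It has 426.5, 368 and 350 CPM in the 3 libraries of 1CT and 49.7, 51.4 and 43.96 CPM in those of 1CT-A. The lowest 1CT library is thus far above the highest 1CT-A library, and the log2 fold change is -3.02 (SE 0.09, edgeR adjusted p = 1.24e-10). NOG encodes noggin, which blocks the receptor-binding surfaces of BMPs. Its level is 8.52, 10.3 and 9.12 CPM in 1CT and 2.51, 2.81 and 3.81 CPM in 1CT-A, without overlap (log2 fold change -1.64, SE 0.20, edgeR adjusted p = 2.20e-05). CHRDL1, on chromosome X from 110673856 to 110795819, encodes the chordin-like BMP antagonist chordin-like 1 and moves the other way. It rises from 2.60, 1.81 and 1.80 CPM to 9.41, 8.86 and 10.9 CPM (log2 fold change 2.19, SE 0.21, edgeR adjusted p = 2.97e-06). Chordin itself (CHRD) is near the limit of detection, with 2, 6 and 2 counts in 1CT and 4, 0 and 0 counts in 1CT-A.

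BMP1, the metalloprotease that cleaves chordin and also procollagens, falls from 40.3, 48.2 and 61.8 CPM to 24.2, 26.0 and 23.2 CPM (log2 fold change -1.07, SE 0.14, edgeR adjusted p = 3.00e-05). The 1CT libraries are spread more widely than the 1CT-A libraries and all lie above them. BAMBI, a membrane pseudoreceptor that lacks the kinase domain, is low in both lines, with 3.43, 3.02 and 3.47 CPM in 1CT and 1.34, 1.76 and 1.82 CPM in 1CT-A (log2 fold change -1.04, SE 0.27, edgeR adjusted p = 0.00547).

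**Figure D2:**
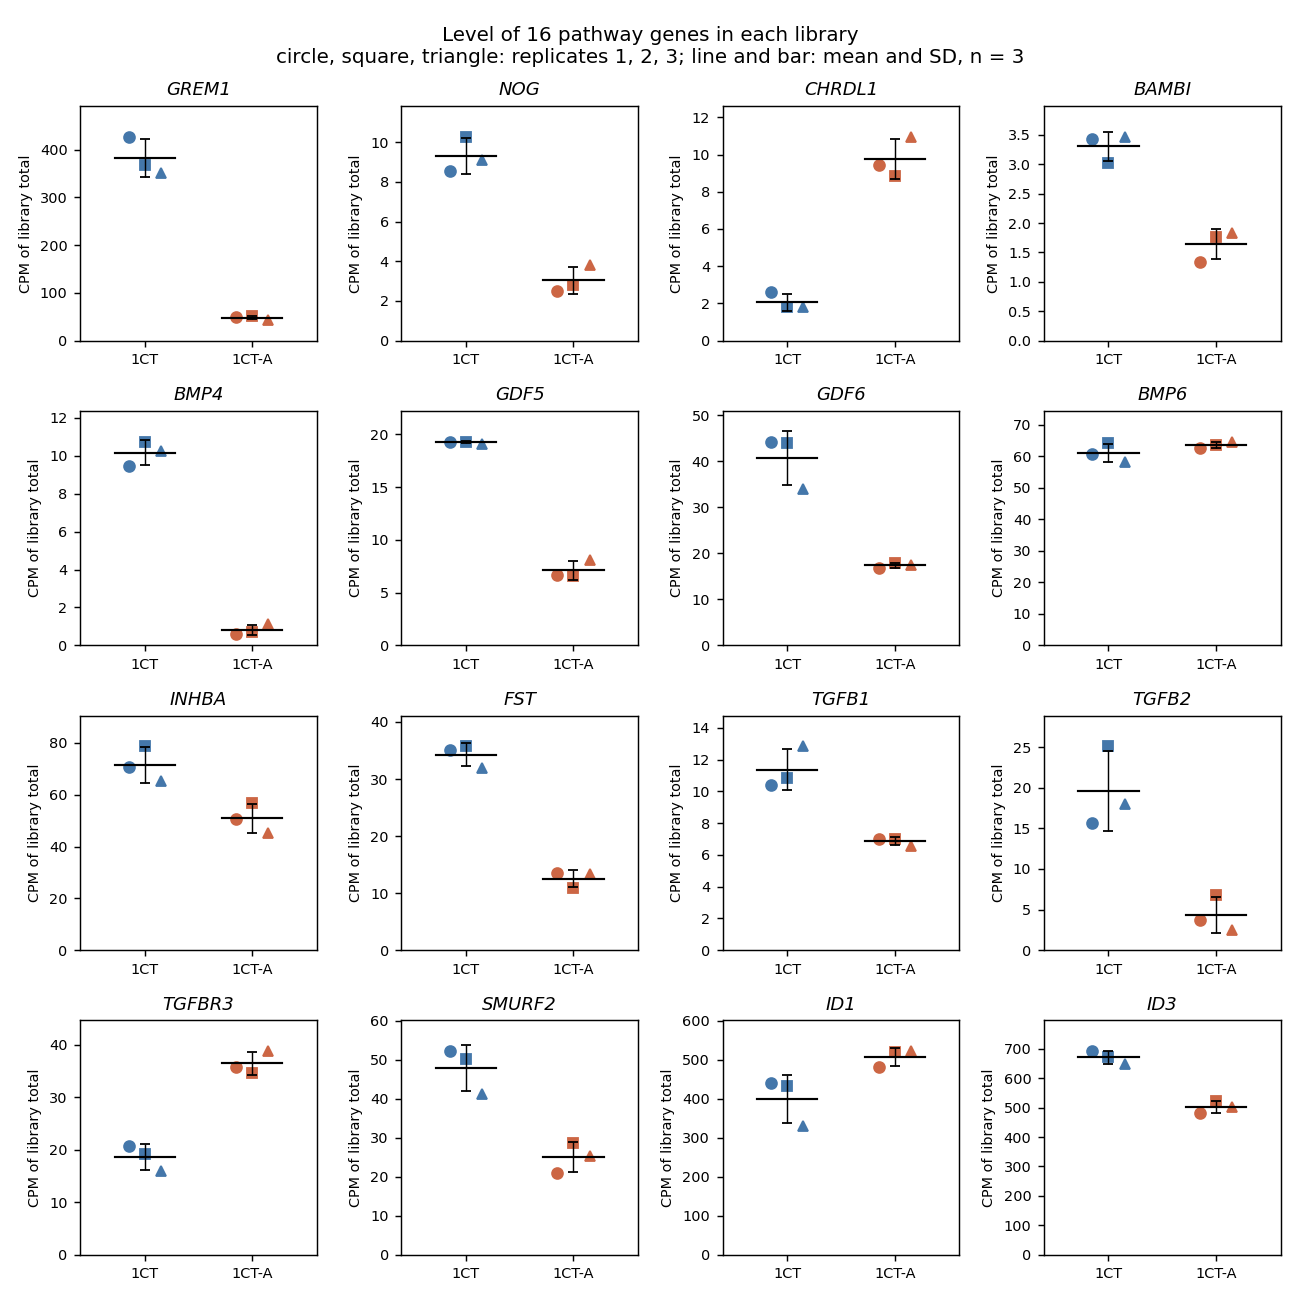
Level of 16 pathway genes in CPM of the library total (y axis, each panel starting at 0) in 1CT and 1CT-A (x axis), with 1 point per library and the mean and SD of 3 libraries. GREM1 falls from a mean of 382 to 48.3 CPM and CHRDL1 rises from 2.07 to 9.74 CPM, whereas the points of BMP6 in the lines overlap.

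Of the 4 BMP and GDF ligands tested, 3 are lower in 1CT-A, compared with 26.0% of all genes, and BMP6 is not called. BMP4, a ligand of the BMP branch on chromosome 14 from 53949736 to 53958761, has 9.46, 10.7 and 10.3 CPM in 1CT and 0.627, 0.702 and 1.11 CPM in 1CT-A. Its 7, 8 and 14 counts in the 1CT-A libraries are above the floor of 3 counts, while single olfactory receptor genes reach up to 0.714 CPM in these libraries, and the log2 fold change is -3.64 (SE 0.25, edgeR adjusted p = 1.10e-07). GDF5 and GDF6 are closely related ligands known from joint and skeletal development. GDF5 falls from 19.3, 19.3 and 19.1 CPM to 6.63, 6.58 and 8.09 CPM, with hardly any spread in 1CT (log2 fold change -1.47, SE 0.14, edgeR adjusted p = 1.62e-06). GDF6 falls from 44.2, 43.8 and 33.9 CPM to 16.8, 17.8 and 17.5 CPM (log2 fold change -1.27, SE 0.11, edgeR adjusted p = 1.27e-06).

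BMP6, a ligand also known for its role in iron regulation, has 60.6, 64.2 and 58.3 CPM in 1CT and 62.6, 63.5 and 64.7 CPM in 1CT-A. The groups overlap, and the log2 fold change of 0.02 has an SE of 0.08 (edgeR adjusted p = 0.835), with -0.035 under upper-quartile normalization. Its exons share 212 bases with TXNDC5 on the opposite strand in GENCODE release 44. No strand setting is stated for the counting, so reads of both genes cannot be told apart where they overlap. TXNDC5 has 690, 702 and 582 counts in 1CT and 934, 1063 and 1117 in 1CT-A, more than BMP6 in each library. It is not called either (log2 fold change 0.10, SE 0.08, edgeR adjusted p = 0.306). The part of TXNDC5 reads in the BMP6 level was not tested. BMP2 has 1, 37 and 7 counts in 1CT and 1, 20 and 0 counts in 1CT-A, so that most of its reads in each line come from the library numbered 2. BMP7 has 1, 0 and 1 counts in 1CT and 0 counts in every 1CT-A library, which allows at most 0.269 CPM there by counting error alone.

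Both TGF-β ligands that are tested, TGFB1 and TGFB2, are lower in 1CT-A, compared with 26.0% of all genes. TGFB2, on chromosome 1 from 218345336 to 218444619, has 15.6, 25.1 and 17.97 CPM in 1CT and 3.76, 6.76 and 2.46 CPM in 1CT-A. Both lines have their highest value in the library numbered 2, and the groups do not overlap (log2 fold change -2.23, SE 0.28, edgeR adjusted p = 2.16e-05). The level of TGFB1, the prototype of the family, is 10.4, 10.9 and 12.8 CPM in 1CT and 6.99, 7.02 and 6.59 CPM in 1CT-A (log2 fold change -0.77, SE 0.15, edgeR adjusted p = 0.00102). TGFB3 has 12, 4 and 13 counts in 1CT and 4, 6 and 6 counts in 1CT-A and is not tested.

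The makeup of the TGF-β ligand reads differs between the lines. TGFB1 holds 37.9%, 29.8% and 39.5% of the summed reads of the 3 ligands in 1CT and 62.9%, 49.1% and 69.2% in 1CT-A, and TGFB2 moves from 60.4% ± 7.41 to 35.6% ± 10.8 (SD, n = 3). These shares rest on 232 to 302 reads per 1CT library and 120 to 163 reads per 1CT-A library. The groups do not overlap, and the exact two-sided permutation p of 0.1 is the smallest that 3 libraries against 3 can give, here and for the other 3 read ratios examined below, so none can pass 0.05 and the adjusted p over the 4 is also 0.1. The exons of TGFB2 share 1371 bases with TGFB2-OT1 on the same strand and 701 bases with TGFB2-AS1 on the opposite strand. These partners have log2 fold changes of -2.16 and -2.48. TGFB2-OT1 has 108, 183 and 128 counts in 1CT and 39, 70 and 28 in 1CT-A, close to those of TGFB2 in each library. Reads of TGFB2 and TGFB2-OT1 cannot be told apart where they overlap, so the partner's value is not a separate result. TGFB1 shares 215 exon bases with HNRNPUL1 on the opposite strand, which is higher in 1CT-A (log2 fold change 0.48, SE 0.08, edgeR adjusted p = 1.92e-04).

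**Figure D3:**
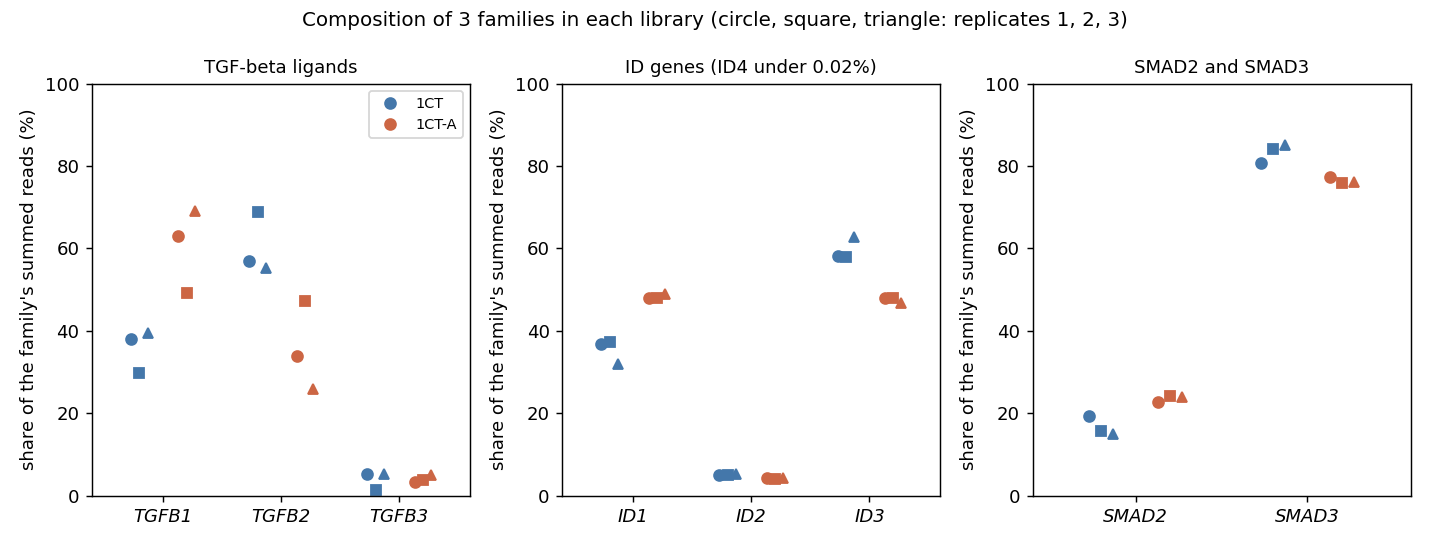
Shares of reads within gene groups (x axes) for each of the 6 libraries, in percent of the summed reads of the group (y axes). In each 1CT-A library the TGFB1 share (49.1% to 69.2%), the ID1 share (47.9% to 48.8%) and the SMAD2 share (22.7% to 24.1%) exceed those of every 1CT library.

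Of the 4 TGF-β receptors and co-receptors, 1 is higher in 1CT-A, the same share as the 25.0% of all genes, and 3 are not called. TGFBR3, or betaglycan, is the co-receptor that presents TGFB2 to the signaling receptors, and it rises from 20.7, 19.2 and 15.9 CPM to 35.8, 34.7 and 38.8 CPM (log2 fold change 0.93, SE 0.11, edgeR adjusted p = 1.53e-05). The type I receptor TGFBR1 has a mean of 10.6 ± 2.22 CPM in 1CT and 13.8 ± 1.75 CPM in 1CT-A, with overlapping groups (SD, n = 3). It is not called (log2 fold change 0.33, SE 0.17, edgeR adjusted p = 0.110) but is called without the 1CT library 2 (log2 fold change 0.51, edgeR adjusted p = 0.0245). The type II receptor TGFBR2 has 89.6, 101 and 54.1 CPM in 1CT and 57.4, 70.8 and 65.7 CPM in 1CT-A. The 1CT library 3 lies below all 1CT-A libraries, and the call depends on it, since the log2 fold change is -0.37 (SE 0.17, edgeR adjusted p = 0.0766) with it and -0.58 (edgeR adjusted p = 3.5e-05) without it. Endoglin (ENG), a co-receptor best known from endothelial cells, runs from 37.4 to 45.1 CPM and from 32.1 to 40.5 CPM, respectively, and is not called (log2 fold change -0.19, SE 0.11, edgeR adjusted p = 0.178).

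On the activin side, the follistatins fall along with the activin subunit they bind. INHBA encodes the βA subunit of activin A and has 70.6, 78.7 and 65.2 CPM in 1CT and 50.7, 56.7 and 45.2 CPM in 1CT-A (log2 fold change -0.53, SE 0.10, edgeR adjusted p = 6.38e-04). FST encodes follistatin, which sequesters activin, and falls from 35.02, 35.7 and 32.0 CPM to 13.4, 10.9 and 13.3 CPM (log2 fold change -1.48, SE 0.12, edgeR adjusted p = 3.99e-07). FSTL3, a secreted relative that also binds activin, falls from 52.1 ± 2.15 to 33.7 ± 2.46 CPM (SD, n = 3, log2 fold change -0.67, SE 0.09, edgeR adjusted p = 4.23e-05).

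FSTL1, a more distant relative, falls from 322 ± 45.5 to 211 ± 10.1 CPM (SD, n = 3, log2 fold change -0.65, SE 0.09, edgeR adjusted p = 5.78e-05). With 0.5 added to each count, the ratio of INHBA to FST counts is 3.76, 5.19 and 3.39 in the 1CT-A libraries, compared with 2.02, 2.20 and 2.04 in 1CT. The difference of the log2 ratios is 0.96 and the groups do not overlap (exact two-sided permutation p = 0.1). The other activin subunits INHBB (0 to 4 counts per library) and INHBE (5 to 13 counts) are not tested.

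The activin and BMP receptors do not share a direction. ACVR1 and ACVR2A, a type I and a type II receptor, are higher in 1CT-A, BMPR2 and ACVR1B, a type II and a type I receptor, are lower, and ACVR2B and BMPR1A are not called. ACVR1 has 21.9, 21.7 and 15.9 CPM in 1CT and 26.4, 31.8 and 30.2 CPM in 1CT-A (log2 fold change 0.53, SE 0.13, edgeR adjusted p = 0.00358). ACVR2A rises from 3.19, 4.47 and 2.95 CPM to 6.27, 6.67 and 6.59 CPM (log2 fold change 0.84, SE 0.21, edgeR adjusted p = 0.00458). Its exons share 431 bases with ORC4 on the opposite strand, which is also higher (log2 fold change 0.56, SE 0.12, edgeR adjusted p = 0.00227). ORC4 has 110, 119 and 100 counts in 1CT and 223, 210 and 281 in 1CT-A, more than ACVR2A in each library. The part of ORC4 reads in the ACVR2A difference was not tested.

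BMPR2 has 56.3, 58.7 and 57.5 CPM in 1CT and 41.05, 36.3 and 39.2 CPM in 1CT-A, and the groups do not overlap (log2 fold change -0.60, SE 0.09, edgeR adjusted p = 6.63e-05). ACVR1B has 20.5, 16.5 and 14.4 CPM and 13.0, 15.4 and 12.2 CPM. It is the single called gene of the pathway whose groups overlap (log2 fold change -0.38, SE 0.15, edgeR adjusted p = 0.0490), and it loses the call in 9 of 15 alternatives, with -0.23 without the 1CT library 1. BMPR1A has 2.48, 3.14 and 2.57 CPM and 3.23, 3.60 and 4.28 CPM, so that its groups do not overlap, but it is not called (log2 fold change 0.40, SE 0.24, edgeR adjusted p = 0.178). ACVR2B lies between 0.807 and 1.66 CPM in all 6 libraries (log2 fold change -0.43, SE 0.35, edgeR adjusted p = 0.331), and BMPR1B has 1 to 14 counts per library and is not tested.

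The log2 fold changes of the signal-transducing SMADs lie between -0.38 and 0.45. SMAD1, a BMP-branch SMAD, rises from 10.8, 9.18 and 10.8 CPM to 15.1, 13.3 and 14.8 CPM (log2 fold change 0.45, SE 0.14, edgeR adjusted p = 0.0145), a call lost without the 1CT library 2 (log2 fold change 0.38, edgeR adjusted p = 0.0567). SMAD4, the partner common to both branches and a tumor suppressor of the colon, rises from 27.8, 33.6 and 27.2 CPM to 37.2, 38.5 and 40.2 CPM (log2 fold change 0.35, SE 0.10, edgeR adjusted p = 0.0102). SMAD3 falls from 206, 204 and 236 CPM to 160, 178 and 171 CPM (log2 fold change -0.38, SE 0.08, edgeR adjusted p = 0.00141).

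SMAD2, which shares the TGF-β and activin branch with SMAD3, has 49.1, 38.3 and 41.2 CPM and 47.2, 56.7 and 53.6 CPM, with overlap, and is not called (log2 fold change 0.25, SE 0.11, edgeR adjusted p = 0.0602). It is called without the 1CT library 1 (log2 fold change 0.36, edgeR adjusted p = 0.0161) and without the 1CT-A library 1 (log2 fold change 0.32, edgeR adjusted p = 0.0391). As a share of the summed SMAD2 and SMAD3 reads, SMAD2 goes from 19.3%, 15.8% and 14.9% in 1CT to 22.7%, 24.1% and 23.9% in 1CT-A (exact two-sided permutation p = 0.1). SMAD5, the other BMP-branch SMAD, has 59.6 ± 1.17 and 54.5 ± 6.28 CPM (SD, n = 3) and is not called (log2 fold change -0.17, SE 0.09, edgeR adjusted p = 0.148).

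The intracellular inhibitors fall together, with all 4 tested genes lower in 1CT-A, compared with 26.0% of all genes, and a median log2 fold change of -0.91. SMAD6 and SMAD7 are the inhibitory SMADs, which are themselves induced by the pathway. SMAD6 falls from 4.73, 4.35 and 3.98 CPM to 2.42, 2.63 and 2.46 CPM (log2 fold change -0.84, SE 0.22, edgeR adjusted p = 0.00688). SMAD7 falls from 1.89, 3.26 and 2.31 CPM to 0.896, 1.05 and 1.35 CPM (log2 fold change -1.20, SE 0.33, edgeR adjusted p = 0.00837), on 10 to 27 counts per library, and is not called without the 1CT library 2 (log2 fold change -0.95, edgeR adjusted p = 0.0549).

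SMURF2 and SMURF1 encode ubiquitin ligases that mark SMADs and receptors for degradation. SMURF2 has 52.3, 50.3 and 41.3 CPM in 1CT and 21.1, 28.8 and 25.3 CPM in 1CT-A (log2 fold change -0.98, SE 0.12, edgeR adjusted p = 2.05e-05). SMURF1 has 11.2, 9.78 and 15.02 CPM and 8.07, 7.72 and 9.36 CPM (log2 fold change -0.55, SE 0.18, edgeR adjusted p = 0.0193). The SMURF1 call is lost without the 1CT library 3, at a log2 fold change of -0.35, and also without the 1CT-A library 1 or 2. Exons of SMURF1 share 735 bases with TRRAP and those of SMURF2 share 180 bases with CEP95, each on the opposite strand, and neither partner is called.

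Of the nuclear corepressors, SKI falls from 52.9, 56.4 and 50.2 CPM to 43.6, 41.8 and 43.3 CPM (log2 fold change -0.35, SE 0.08, edgeR adjusted p = 0.00336). The levels of its relative SKIL are 24.1, 17.99 and 16.4 CPM in 1CT and 17.5, 17.8 and 18.3 CPM in 1CT-A, which overlap, and it is not called (log2 fold change -0.17, SE 0.14, edgeR adjusted p = 0.338). Without the 1CT library 1, its highest, the log2 fold change of SKIL is 0.014. The homeodomain repressor TGIF1, at 10.6 ± 1.02 and 9.40 ± 0.849 CPM (SD, n = 3), is not called either (log2 fold change -0.21, SE 0.15, edgeR adjusted p = 0.268).

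The ID genes, classical BMP targets that encode inhibitors of basic helix-loop-helix factors, part from each other. ID1, on chromosome 20 from 31605283 to 31606515, has 439, 432 and 329 CPM in 1CT and 481, 520 and 522 CPM in 1CT-A. All 1CT-A libraries lie above the 1CT libraries, of which the library 3 is the lowest (log2 fold change 0.31, SE 0.09, edgeR adjusted p = 0.0142), but the call is lost without the 1CT-A library 3 (log2 fold change 0.29, edgeR adjusted p = 0.0517). ID3, on chromosome 1 from 23557926 to 23559501, falls from 692, 673 and 649 CPM to 481, 522 and 501 CPM (log2 fold change -0.46, SE 0.06, edgeR adjusted p = 4.27e-05).

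ID2 falls from 58.8, 56.9 and 55.0 CPM to 42.4, 44.3 and 46.2 CPM (log2 fold change -0.40, SE 0.08, edgeR adjusted p = 0.00111). The ID1 share of all ID reads is 36.9%, 37.2% and 31.8% in 1CT and 47.9%, 47.9% and 48.8% in 1CT-A, and that of ID3 moves from 59.6% ± 2.77 to 47.6% ± 0.648 (SD, n = 3, exact two-sided permutation p = 0.1). ID4 has 0 to 2 counts per library. PMEPA1, a TGF-β target that feeds back on SMADs, has 6, 23 and 4 counts in 1CT and 0, 4 and 1 counts in 1CT-A, without overlap in CPM, and is not tested. TGFB1I1, a focal adhesion protein induced by TGF-β, has 44.3 ± 7.32 and 41.1 ± 2.15 CPM (SD, n = 3) and is not called (log2 fold change -0.15, SE 0.11, edgeR adjusted p = 0.307), with 0.013 without the 1CT library 3.

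Related genes outside the 50 fall into lists by role, chosen with earlier results of these data known. The list of latent TGF-β activation leans lower, the tested genes of the BMP target list lean higher, and the TGF-β targets change in both directions. Over all genes tested, 26.0% are lower and 25.0% higher. Of 20 TGF-β target genes, 19 are tested, of which 10 (52.6%) are lower and 6 (31.6%) higher in 1CT-A, with a median log2 fold change of -0.57. By the 2-fold rule, 5 of the 19 are lower (9.60% of all genes) and 4 are higher (3.80%). ANGPTL4 falls from 1368 ± 128 to 233.5 ± 1.40 CPM, CTGF (the matricellular protein CCN2) from 306 ± 41.1 to 98.4 ± 3.28 CPM and LTBP2, a matrix protein of the latent TGF-β binding protein family, from 34.0 ± 5.52 to 11.8 ± 1.38 CPM (SD, n = 3). In the opposite direction, the AP-1 component JUNB rises from 27.3 ± 5.65 to 226 ± 20.9 CPM, the fibrillar collagen gene COL3A1 from 47.8 ± 17.8 to 253 ± 15.01 CPM and the gelatinase MMP2 from 6.38 ± 3.47 to 27.3 ± 1.26 CPM. The largest rise in this list, that of JUNB, has a log2 fold change of 3.01 (SE 0.13, edgeR adjusted p = 1.52e-09).

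Of 8 BMP target genes, 7 are tested, of which 5 are higher and 1 lower, with a median log2 fold change of 1.36. That median is the value of TNFRSF11B, which averages 5.02 CPM, and HEY1, MSX1 and MSX2 also average under 10 CPM. The part of the low-level counts in these differences was not tested. ATOH8, with the highest level in this list, is not called (log2 fold change -0.08, SE 0.08, edgeR adjusted p = 0.409). Induced genes counted among the pathway genes are not in this list, of which ID1 is higher and ID2, ID3, SMAD6 and SMAD7 are lower. RUNX2, the osteoblast transcription factor, rises from 6.27, 7.003 and 3.59 CPM to 18.8, 20.1 and 20.7 CPM (log2 fold change 1.77, SE 0.18, edgeR adjusted p = 4.33e-06). SMAD9, a BMP-branch SMAD that is itself BMP-induced, rises from 10.8 ± 0.903 to 17.3 ± 0.700 CPM (SD, n = 3, log2 fold change 0.63, SE 0.13, edgeR adjusted p = 0.00109). Of the 14 genes listed under latent TGF-β binding and activation, 11 are tested, 9 are lower and 1 is higher. A place in this list does not mean that a gene itself binds or activates latent TGF-β. LTBP2 and THBS1, both lower, and ITGB6, which has 0 counts, stand in this list and in that of the TGF-β targets, so the counts of these lists are not independent. The lower genes of the latent TGF-β list include the microfibril gene FBN2, which falls from 339 ± 31.2 to 123 ± 8.34 CPM. The proprotein convertase FURIN, also in this list, falls from 140 ± 13.1 to 57.1 ± 1.32 CPM (SD, n = 3).

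**Figure D4:**
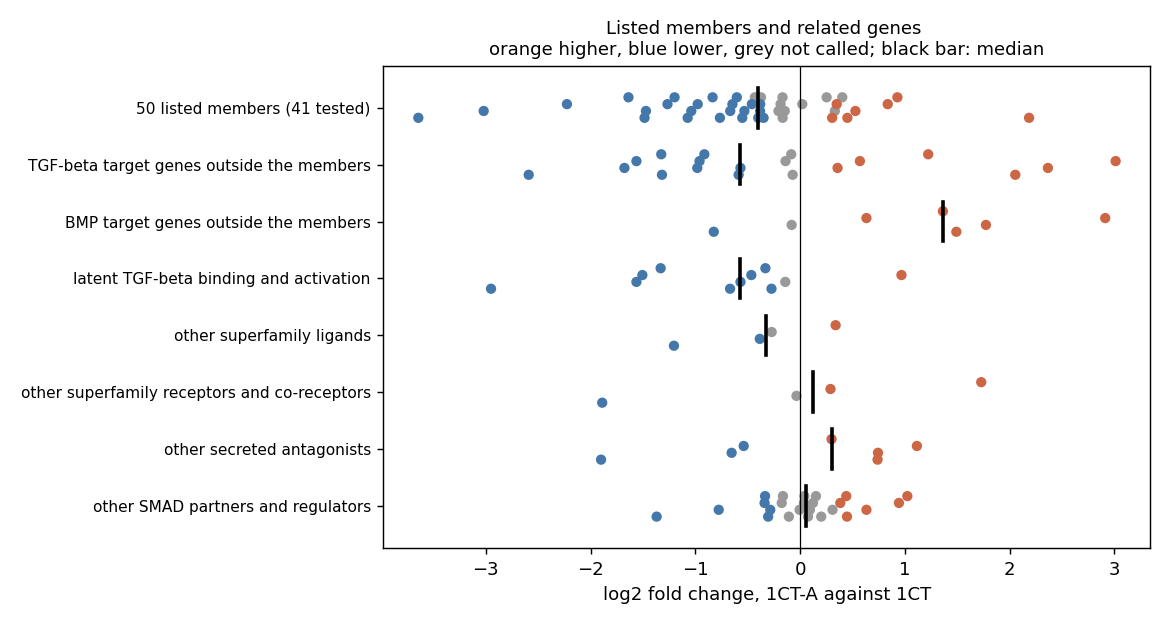
Log2 fold changes between the lines, 1CT-A relative to 1CT (x axis), for each tested gene of the pathway and of the 7 related lists (y axis), 1 point per gene, with a black bar at the median of each list. The median is -0.40 for the pathway genes, -0.57 for the TGF-β target genes and 1.36 for the 7 tested BMP target genes.

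The remaining lists are mixed, where over all genes tested 25.0% are higher and 26.0% lower. Among the other receptors and co-receptors, the neuropilins NRP2 (14.2 ± 2.44 to 48.2 ± 1.09 CPM) and NRP1 (49.5 ± 0.470 to 62.2 ± 1.54 CPM) are higher, and ACVRL1, a type I receptor of BMP9 and BMP10, is lower (17.4 ± 3.30 to 4.85 ± 1.13 CPM, SD, n = 3). The 7 other secreted antagonists tested divide into 4 higher and 3 lower, with NBL1 (log2 fold change 0.74), TWSG1 (0.74) and DCN (0.30) on the higher side and CRIM1 (-0.65) on the lower. Of 21 other ligands of the family, 4 are tested, of which GDF11 is higher (log2 fold change 0.34, groups overlapping) and GDF15 lower (-0.38). Of the 24 SMAD partners and regulators tested, 6 are higher and 6 lower, with a median log2 fold change of 0.06. These shares, 25% each, are near those of all genes. The largest among them are RBL1 (1.02), TGIF2 (0.94) and SMAD9, which is also in the BMP target list, on the higher side and the adaptor DAB2 (-1.37), the ubiquitin ligase NEDD4L (-0.78) and the acetyltransferase EP300 (-0.34) on the lower side.

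In the marker lists, 2 of 10 epithelial, 10 of 10 mesenchymal, 1 of 6 endothelial and 1 of 6 immune genes are tested. In the epithelial list, KRT18 (11.2 ± 1.72 to 5.06 ± 1.90 CPM) and KRT19 (2.37 to 4.37 CPM in 1CT, 0 counts in every 1CT-A library) are lower. Of the 10 mesenchymal markers, 2 are higher (25.0% of all genes), 4 lower (26.0%) and 4 not called. COL1A1, COL1A2 and COL3A1 among them are also in the TGF-β target list. The endothelial markers PECAM1, CDH5, VWF, KDR, TEK and CLDN5 sum to at most 6.76 CPM, with TEK lower, and the immune markers PTPRC, CD3E, CD14, CD68, MS4A1 and LYZ to at most 15.03 CPM, of which CD68 holds the most and is lower (log2 fold change -0.41, SE 0.15, edgeR adjusted p = 0.0380).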

How the data were processed

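Total RNA (500 ng) of 3 libraries of 1CT and 3 of 1CT-A was sequenced after 3′ library preparation with the QuantSeq kit. The authors deposited 1 table of unnormalized read counts per gene symbol for each library, with replicates kept separate. The submitters' processing notes name Bowtie2, edgeR and hg19 without versions. The counting tool, the strand setting, the annotation and filters on reads are not given in the sources used here.

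Entries with the same symbol were summed, from 25737 entries to 24462 symbols. Levels are CPM of the library total. Counts were fitted in R 4.3.3 with edgeR 4.0.16 (TMM factors 0.976 to 1.02, filterByExpr with a minimum count of 10, quasi-likelihood test between the lines with no block, Benjamini-Hochberg adjustment over 12514 genes, calls at an adjusted p under 0.05). The study's methods name a per-gene two-tailed test, which was run as an alternative on log2(CPM + 1). Ratios of INHBA to FST, linear and log2, used a pseudocount of 0.5. Read shares and ratios were compared by exact permutation tests. Scripts were tested on simulated data. Floors and p-values are for counting error and library spread only, and no molecular identifiers are named for the reads.

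Replicates of a line differ by more than counting noise (chi-square per degree of freedom 3.11 to 9.00), so none is a copy of another. Between libraries that share a number, deviations from the line's mean correlate at -0.15, 0.21 and -0.13 for numbers 1, 2 and 3 over the 8224 genes averaging 10 CPM or more (-0.27, 0.50 and 0.01 over the 30 pathway genes among them). Since not every pair exceeds 0.1, the numbers were not taken as pairs. Alternatives were RLE, library size only and upper-quartile normalization, DESeq2 1.42.0, limma-voom (limma 3.58.1), the block, the absence of a filter, a minimum of 10 counts per library, an adjusted p under 0.01, each library left out in turn and, added after the data were seen, a restriction to genes averaging 10 CPM or more. The pathway genes and lists were chosen with earlier results of these data known. All pathway genes are accounted for, and from each related list the called genes with the 3 largest rises and falls among genes averaging 10 CPM or more are named. Positions are those of GENCODE release 44 on GRCh38 and do not describe the submitters' counting.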

Additional observations from a re-analysis of the deposited data

How the results depend on the processing

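Of the 30 calls among the pathway genes, all remain with RLE, upper-quartile normalization and limma-voom, with upper quartile adding TGFBR2, and ACVR1B is lost with library size only (which adds SMAD2), no filter and DESeq2. With at least 10 counts in every library, BMP4 is not tested and the other 29 calls remain. The number of higher pathway genes, 7, becomes 4 at an adjusted p under 0.01, where called genes in total go from 6388 to 4671. It is also 4 with the per-gene test on log2(CPM + 1), which loses ACVR1, ACVR1B, SMAD4, SMURF1 and ID1. With that test, higher genes in total go from 3131 to 2279 and lower ones from 3257 to 2564. The 11 genes past the 2-fold rule become 6 among genes averaging 10 CPM or more, where fewer genes are counted. Without a filter TGFB3, TGFBR1, TGFBR2, BMP2, SMAD2 and PMEPA1 are also called, among them BMP2 (log2 fold change -1.58) and PMEPA1 (-3.12). This fit calls 7238 of 19169 genes in total. Its adjusted p-values can be far smaller, as for GREM1 (5.23e-241 in edgeR without a filter, 1.24e-10 with it). The groups of the genes that this fit adds overlap, except those of PMEPA1. None of them is called with the filter and TMM factors over all 6 libraries, so the added calls are not taken as differences between the lines. Leaving out 1 library gives 5364 to 6551 called genes in total, 6 to 8 higher and 21 to 23 lower pathway genes and 9 to 12 past the 2-fold rule, and TGFB3 and BMPR1B enter the calls without the 1CT library 2.

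The sign turns for 3 genes that are not called. Leaving out 1 library, SKIL ranges from -0.26 to 0.014, the latter without the 1CT library 1, and TGFB1I1 from -0.22 to 0.013, the latter without the 1CT library 3, and BMP6 is at -0.035 with upper-quartile normalization, and the cause was not tested. Upper-quartile normalization moves the median log2 fold change of all genes from -0.01 to -0.06 and the calls to 2681 higher and 3661 lower, while library size only gives 3441 and 3014. Leaving out 1 library, the TGFB1 share differs by 20.2 to 30.3 percentage points between the lines, the ID1 share by 11.2 to 13.8 and the SMAD2 share by 6.07 to 8.26, and the log2 INHBA to FST ratio by 0.78 to 1.09.

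Of the related lists, called genes range from 1 to 3 for other ligands (3 with all libraries) and from 4 to 6 for other secreted antagonists (7 with all libraries, 4 without the 1CT-A library 2) when 1 library is left out. The ranges are 15 to 17 for TGF-β targets, 8 to 11 for latent TGF-β activation, 9 to 11 for SMAD partners, 5 to 7 for mesenchymal markers, 6 to 6 for BMP targets, 3 to 3 for other receptors, 2 to 2 for epithelial and 1 to 1 for endothelial and immune markers. With library size only and with the block, 0 immune markers are called in edgeR instead of 1. A block for the replicate number leaves 6091 genes called instead of 6388, and 29 of the 30 pathway calls remain, ACVR1B being lost. Depth limits the 9 untested genes, of which none exceeds 37 counts in a library.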

Other observations

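Some pathway genes have their highest value in the library numbered 2 of both lines. TGFB2, TGFBR1, TGFBR2, INHBA, FSTL1, ACVR2A and SMAD5 do so, 7 of 41 tested pathway genes (17.1%), which is close to the 13.8% of all genes tested. For the libraries numbered 1 it is 0 of 41 (8.25% of all genes) and for those numbered 3 it is 2 of 41 (9.37%). Over the 30 pathway genes averaging 10 CPM or more, the deviations of the libraries numbered 2 correlate at 0.50 between the lines, and those of the 1CT library 1 and the 1CT-A library 3, which share no number, at 0.44. These are correlations across genes, which are not independent replicates. Among the untested genes, 37 of the BMP2 counts of 1CT and 20 of those of 1CT-A come from the library numbered 2, where the other libraries hold 0 to 7.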
